A study of Mus musculus with 2 samples.

Results

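The Hox genes of the mouse encode transcription factors with a homeodomain, and they lie in 4 clusters named Hoxa, Hoxb, Hoxc and Hoxd. The members described here are the protein-coding genes of GENCODE release M21 whose name is Hox, a cluster letter from a to d and a paralog number, with no further character. The rule took 39 genes, 11 in Hoxa, 10 in Hoxb, 9 in Hoxc and 9 in Hoxd, out of 22028 protein-coding genes and 55536 annotated genes. It used names only and no measured value.

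Hox genes are known for specifying position along the head-to-tail axis of the embryo. Within a cluster, genes with low paralog numbers are active early and reach far toward the head, and genes with high numbers start later and stay toward the tail, an ordering called collinearity. Cells of the adult body often keep the Hox combination of the level where they arose, and the adrenal gland lies at the level of the thoracic and lumbar trunk, with a cortex from mesoderm and a medulla from the neural crest.

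Total RNA was sequenced from adrenal gland of male B6CASTF1/J mice, a first-generation cross also labelled B6Cast F1, at postnatal day 10. The 2 libraries form 1 group, labelled biological replicates 1 and 2, with 300 ng of RNA going into each, and ERCC spike-in RNAs of known amount were added. No treatment, allele or agent is labelled, and nothing was compared with another condition. The sample labels number the animals 3 and 4, but the library descriptions carry 3 for both and the donor identifier is the same. The spread between the libraries may therefore be partly technical. With 2 libraries the smallest two-sided exact p is 0.5, so no test was made.

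Gene tables held 36652695 expected counts on annotated genes in replicate 1 and 38641442 in replicate 2, and Hox genes took 9719 and 8888 of them, or 265 and 230 per 1e6. The labelled tissue was checked by its markers, with all 8 cortex and all 8 chromaffin genes of the lists used at 1 TPM or more in both libraries. TPM divides counts by transcript length and sets each library to the same total, so it can be compared between genes. Other tissues were present: brown fat markers summed to 2952 and 2557 TPM and liver markers to 3631 and 11377 TPM. Of the 9 kidney markers and 5 spinal motor neuron markers, none reached 1 TPM in both libraries. In bulk tissue, fewer cells of a type and less RNA per cell cannot be told apart, and which cells carried the Hox transcripts was not measured.

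Members of the middle of the series, from number 2 to number 9, were the ones detected. All 15 members with paralog numbers 4 to 8 reached 1 TPM in both libraries, as did 3 of the 8 with numbers 1 to 3, Hoxd9 and Hoxb9. None of the 12 members with numbers 10 to 13 did. In all, 20 of 39 members passed this threshold, beside 56.7% of all protein-coding genes. Hox TPM summed to 140 in replicate 1 and 128 in replicate 2, and 49.1% and 50.2% of that came from the 5 most abundant members.

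**Figure D1:**
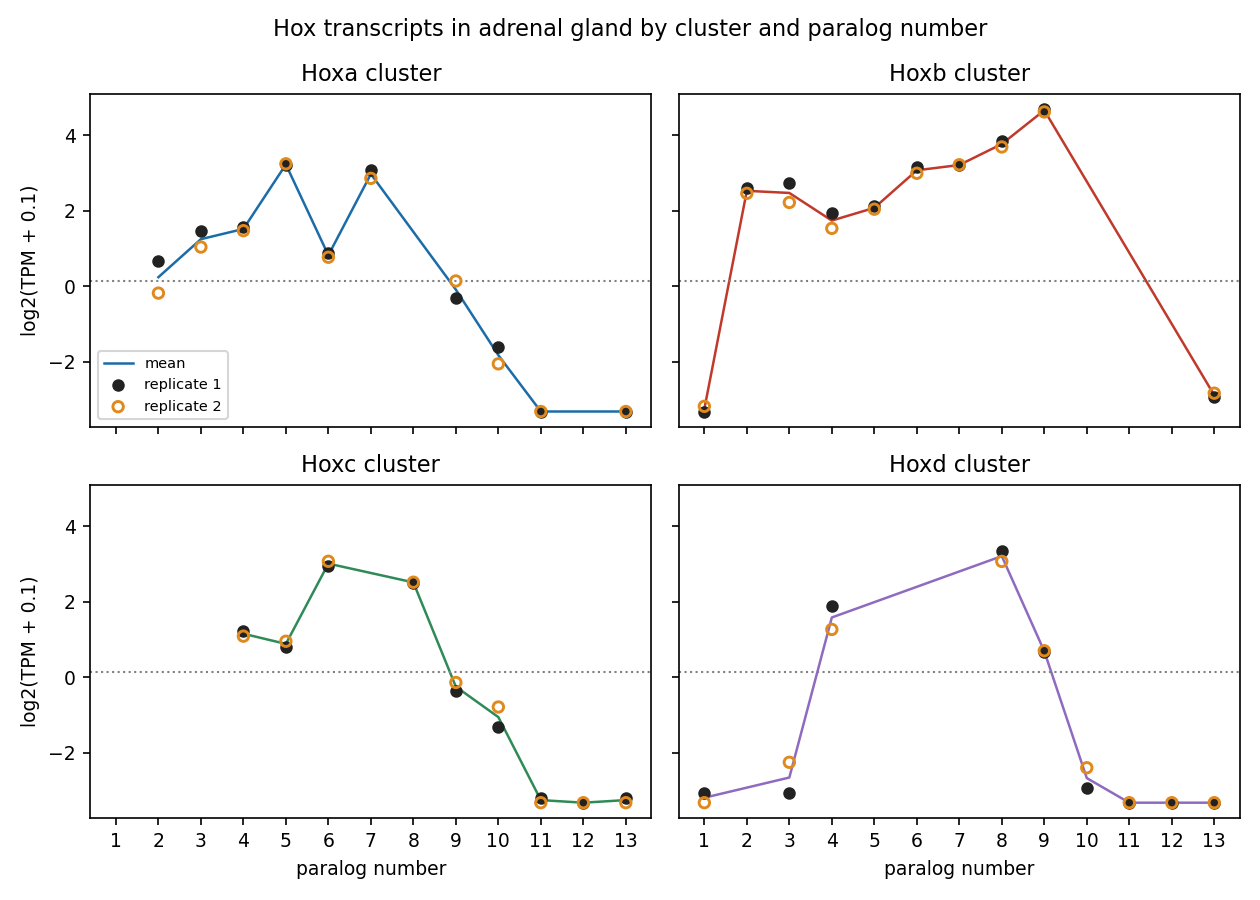
TPM of the members on a log2(TPM + 0.1) axis against paralog number, 1 panel per cluster. Filled points are replicate 1, open points replicate 2, the line joins their means, and the dotted line marks 1 TPM. The Hoxb panel climbs from Hoxb4 to Hoxb9, while the other 3 panels peak between numbers 5 and 8, and all lie near the bottom from number 11 on.

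Hoxb9 (ENSMUSG00000020875.9, GRCm38/mm10 chr11:96271457-96276595, plus strand), a gene known from rib patterning, was the most abundant member, with 26.0 TPM in the first replicate and 24.4 in the second. It rested on 2280 and 2188 counts and ranked 2596 among protein-coding genes by mean TPM. Its paralogs stood far lower in both libraries. Hoxd9 had 1.5 and 1.53 TPM, Hoxa9, known from blood progenitors, 0.70 and 1.00 TPM, and Hoxc9 0.68 and 0.81 TPM. Hoxb9 therefore held 89.0% of the TPM of its paralog group, and exceeded Hoxd9 by 17.3-fold and 16.0-fold, Hoxa9 by 37.1-fold and 24.4-fold and Hoxc9 by 38.2-fold and 30.2-fold in replicates 1 and 2. On the log2 scale these differences were 4.06 ± 0.08, 4.91 ± 0.43 and 5.08 ± 0.24 (SD, n = 2). In the table made directly from the reads, Hoxb9 exceeded Hoxd9 by 16.9-fold and 15.8-fold and Hoxa9 by 22.8-fold and 17.9-fold. It exceeded Hoxc9 there by 33.5-fold and 27.0-fold.

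Hoxb9 and Hoxc9, which differ so far in level, encode nearly the same DNA-binding domain, which is why their homeoboxes are shown. The homeobox is 180 bases long, codes for the 60 residues of the homeodomain and lies in the last exon in all 39 members. The sequences below are from the GENCODE M21 transcripts (GRCm38/mm10), 5′ to 3′ on the coding strand. In Hoxb9 the capitals mark the 6 codons of the recognition helix stretch that located the domain (tryptophan, phenylalanine, glutamine, asparagine, arginine, arginine). In Hoxc9 they mark the 4 codons whose amino acid differs from that of Hoxb9.
Hoxb9 (chr11:96274659-96274838, plus strand): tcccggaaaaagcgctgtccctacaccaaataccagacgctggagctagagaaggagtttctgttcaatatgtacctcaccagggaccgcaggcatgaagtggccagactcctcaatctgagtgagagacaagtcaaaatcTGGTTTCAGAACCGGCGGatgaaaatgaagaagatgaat
Hoxc9 (chr15:102983930-102984109, plus strand): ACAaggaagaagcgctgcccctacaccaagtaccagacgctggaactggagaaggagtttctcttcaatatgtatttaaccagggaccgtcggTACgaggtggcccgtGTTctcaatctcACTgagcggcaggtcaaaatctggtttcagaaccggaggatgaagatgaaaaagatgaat

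Over all members, homeodomains of the same paralog number shared a median of 93.3% of their residues (42 pairs), and those of different numbers 61.7% (699 pairs). Hoxa5 and Hoxb5, and likewise Hoxa2 and Hoxb2, had identical homeodomains. At the level of bases no pair of homeoboxes exceeded 93.9% identity, so the homeoboxes of different members are not the same letters.

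The Hoxb cluster (chr11:96194316-96368256, plus strand, 173.9 kb) carried most of the Hox RNA. Its members summed to 78.5 and 71.1 TPM, or 56.0% ± 0.407 of Hox TPM (SD, n = 2), and 8 of its 10 members reached 1 TPM in both libraries. Level rose with paralog number at each of the 5 steps from Hoxb4 to Hoxb9, in both libraries and both quantifications. Hoxb4, known from blood stem cells, stood at 3.75 and 2.79 TPM, and Hoxb5 at 4.22 and 4.01 TPM. Hoxb6 followed at 8.77 and 7.85 TPM. Hoxb7, whose promoter is used to mark the kidney collecting duct, stood at 9.11 and 9.20 TPM, and Hoxb8, known from spinal cord and myeloid cells, at 14.3 and 12.8 TPM. The steps from Hoxb4 to Hoxb5 and from Hoxb6 to Hoxb7 were the narrow ones, and each exceeded the sum of the SDs of its members in the gene tables but not in the table made directly from the reads. From end to end Hoxb9 exceeded Hoxb4 by 6.92-fold in replicate 1 and 8.76-fold in replicate 2, a log2 difference of 2.96 ± 0.24 (SD, n = 2).

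Toward the low numbers the order in Hoxb turned. Hoxb3 had 6.50 and 4.55 TPM and Hoxb2, a gene of the hindbrain segments, 5.93 and 5.40 TPM, and their means lay above those of Hoxb4 and Hoxb5. Hoxb1, a gene of the early hindbrain, had 0 counts in replicate 1 and 1 in replicate 2. The table made directly from the reads gave it 13 and 4.16 estimated counts, 0.268 and 0.0784 TPM, still under the threshold. Hoxb13, known from the prostate and the tail end of the body, had 2 and 3 counts.

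The Hoxa cluster (chromosome 6, minus strand, 105.3 kb) held 19.7% ± 0.0916 of Hox TPM (SD, n = 2) with 5 of 11 members detected. Its profile was uneven. Hoxa5, needed for lung and for the neck-to-thorax vertebrae, stood at 9.14 and 9.36 TPM, and Hoxa7 at 8.39 and 7.14 TPM. Between them Hoxa6 had 1.73 and 1.60 TPM, so Hoxa5 exceeded it by 5.28-fold and 5.85-fold and Hoxa7 by 4.85-fold and 4.46-fold. Hoxa6 rests on 49 and 46 counts, and its level came out 0.45 and 0.47 higher on the log2 scale in the table made directly from the reads, once both tables are set on the same total. Among the 20 detected members it had the highest shift between the quantifications in each library, and Hoxa7 had the lowest in replicate 1, at -0.35. In the table made directly from the reads Hoxa5 exceeded Hoxa6 by 3.64-fold and 4.07-fold, and Hoxa7 exceeded it by 2.79-fold and 2.74-fold.

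Other Hoxa members were low. Hoxa4 had 2.85 and 2.67 TPM, and Hoxa3, needed for thymus and parathyroid, had 2.64 and 1.95 TPM. Hoxa2, which sets the identity of the second branchial arch, had 1.48 TPM in replicate 1 and 0.78 in replicate 2, so it passed the threshold in 1 library only. Hoxa10 was at 0.23 and 0.14 TPM on 11 and 9 counts. The gene model of Hoxa3 runs through Hoxa4, Hoxa5 and Hoxa6 on the same strand, so reads in the shared stretches were assigned by the authors' quantification and their split is uncertain.

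The Hoxc cluster (chr15:102921103-103036852, plus strand, 115.8 kb) held 14.0% ± 1.42 of Hox TPM (SD, n = 2), with Hoxc6 in front. Hoxc6 stood at 7.64 and 8.33 TPM and Hoxc8, known from the thoracic spinal cord and vertebrae, at 5.60 and 5.64 TPM. Hoxc4 had 2.23 and 2.03 TPM and Hoxc5 1.66 and 1.84 TPM. The fall from Hoxc8 to Hoxc9 was 8.24-fold in replicate 1 and 6.96-fold in replicate 2. Hoxc9 rested on 57 and 68 counts, and had 1.26 and 1.38 TPM in the table made directly from the reads. Those TPM are as deposited and were not set on the same total as the gene tables. Hoxc10 still had 20 and 32 counts (0.30 and 0.48 TPM). The gene model of Hoxc5 spans Hoxc6, Hoxc8 and Hoxc9 and overlaps Hoxc10 on the same strand, and the split of reads between them is uncertain.

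The Hoxd cluster (chr2:74668310-74765142, plus strand, 96.8 kb) held 10.3% ± 0.918 of Hox TPM (SD, n = 2), and Hoxd8 alone made up 66.6% of it. Hoxd8 stood at 10.1 and 8.31 TPM, Hoxd4 at 3.64 and 2.31 TPM and Hoxd9 at 1.5 and 1.53 TPM. Hoxd8 exceeded Hoxd9 by 6.74-fold and 5.43-fold. Below the threshold, Hoxd10 had 2 and 6 counts, Hoxd3 had 1 and 4 and Hoxd1 had 1 and 0. Hoxd3 and Hoxd4 share 17232 bases on the same strand, so the low value of Hoxd3 depends on how reads there were assigned.

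**Figure D2:**
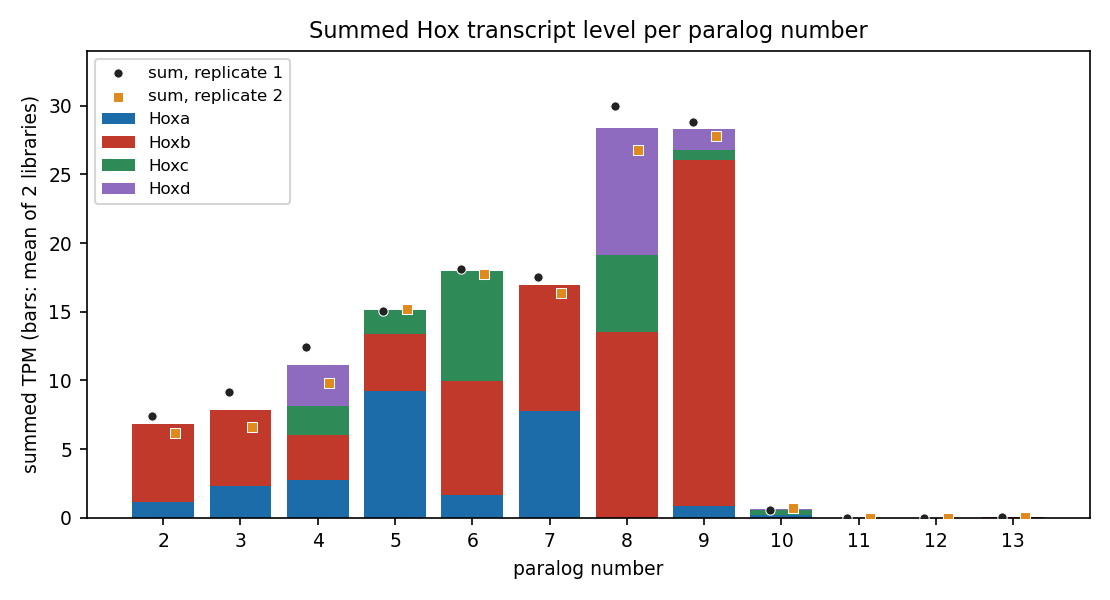
Summed TPM per paralog number from 2 to 13, with bars for the mean of the 2 libraries stacked by cluster and points for each library's sum. The sums reach about the same height at numbers 8 and 9, where the ninth bar is almost all Hoxb9, and drop to near 0 at number 10.

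Summed by paralog number, over groups of 2 to 4 members each, the levels were highest at numbers 8 and 9 and near 0 from number 10 on. Paralog group 8 summed to 30.0 and 26.7 TPM and group 9 to 28.8 and 27.8 TPM, which differ by less than the spread between the libraries. Group 10, the group that specifies lumbar vertebrae, summed to 0.560 and 0.710 TPM. Group 9 thus exceeded group 10 by 51.5-fold in replicate 1 and 39.1-fold in replicate 2, a log2 difference of 5.49 ± 0.28 (SD, n = 2). Numbers 4 to 8 made up 67.0% ± 0.413 of Hox TPM, numbers 9 and 10 together 21.7% ± 0.888, numbers 1 to 3 11.3% ± 1.30 and numbers 11 to 13 0.0336% ± 0.00317 (SD, n = 2).

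The 9 members of groups 11 to 13, which pattern the sacrum, tail, limb ends and urogenital tract, were at or near 0. Hoxa11, Hoxa13, Hoxc12, Hoxd11, Hoxd12 and Hoxd13 had 0 counts in both libraries. A count of 0 allows up to 3 counts, which is at most 0.0879 TPM for any of these 6 genes, for counting error only. Hoxc11 and Hoxc13 had 1 count each in replicate 1 and 0 in replicate 2. In the table made directly from the reads, Hoxa13 had 3 and 5 counts and Hoxd11 2.11 and 3.22, so these 0 counts depend on the quantification.

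Most neighbours in the order of levels could not be told apart. Of the 38 steps between members ordered by mean TPM, 10 were larger than the sum of the SDs of the members on either side, 7 of them below a detected member. Hoxb9 stood apart from the next in both quantifications. Hoxb8 did so in the gene tables, but in the table made directly from the reads its 24.2 ± 3.02 TPM lay closer to the 19.7 ± 4.09 TPM of Hoxd8 (SD, n = 2) than the sum of the SDs. Hoxa5, Hoxd8 and Hoxb7 had means of 9.25, 9.21 and 9.15 TPM in the gene tables, while the other table set the mean of Hoxd8 above those of Hoxc6 at 15.6, Hoxa5 at 15 and Hoxb7 at 13.2 TPM. In the gene tables Hoxb6, Hoxc6 and Hoxa7 followed at means of 8.31, 7.98 and 7.77 TPM, and then Hoxb2, Hoxc8, Hoxb3 and Hoxb5 between 5.67 and 4.12 TPM.

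The libraries agreed on most members, with a lean toward replicate 1. Ratios of replicate 2 over replicate 1 were formed from TMM-scaled counts for the 25 members with a mean of at least 20 counts, with exact binomial 95% intervals that cover counting error only. One value passed 1.5-fold upward, Hoxc10, with a ratio of 1.60 and an interval of 0.888 to 2.95, beside 11.3% of protein-coding genes. Downward there were 2 values, Hoxa2 and Hoxd4, beside 1.48% of protein-coding genes. Of the 25 ratios, 18 lay below 1, beside 48.3% of protein-coding genes, and the median log2 ratio was -0.09, beside 0.006 for protein-coding genes. The count below 1 was 22 with counts scaled on library totals and 21 on the spike-ins, and 4 of the 25 members changed side of 1 between the scalings.

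**Figure D3:**
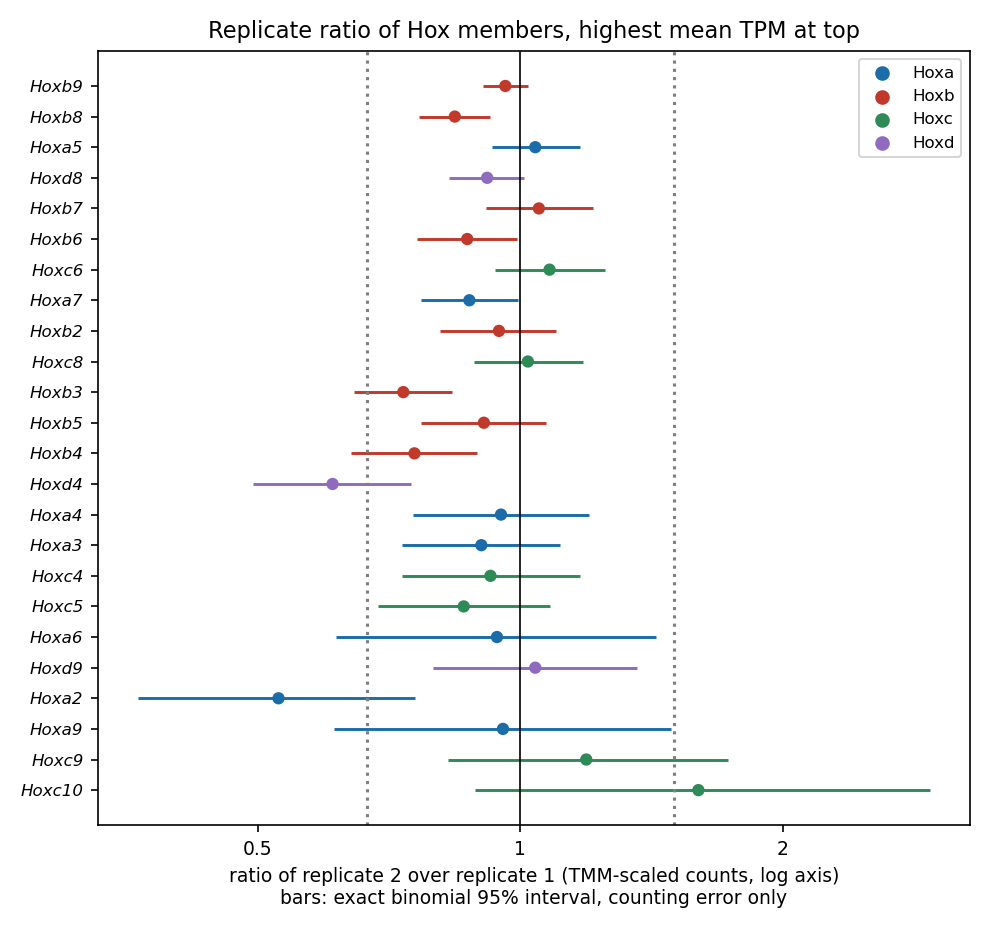
Ratio of replicate 2 over replicate 1 on a log axis for members with a mean of at least 20 counts, ordered by mean TPM and coloured by cluster. Bars are exact binomial 95% intervals for counting error, the solid line marks 1 and the dotted lines 1.5-fold either way. Hoxb3, Hoxb4, Hoxd4 and Hoxa2 sit farthest to the left with intervals below 1, and no interval lies wholly above 1.

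Counting intervals lay wholly below 1 for 7 of the 25 members, beside 19.5% of protein-coding genes, and wholly above 1 for 0, beside 25.4%. Hoxa2 had the lowest ratio, with 91 and 48 counts, a value of 0.528 with an interval of 0.364 to 0.757. Hoxd4 went from 248 to 151 counts, a ratio of 0.609 with an interval of 0.494 to 0.749. The next were Hoxb3 with a ratio of 0.734 and Hoxb4 with 0.756. Hoxb8, Hoxb6 and Hoxa7 were closer to 1, at 0.841, 0.869 and 0.874. Hoxa2, Hoxd4, Hoxb3 and Hoxb4 have paralog numbers from 2 to 4, but not all members of these numbers were so low. Hoxb2, Hoxa3, Hoxa4 and Hoxc4 had intervals that held 1, and the lowest of their ratios was 0.902, for Hoxa3. A link between paralog number and ratio was not tested. Hoxb9, with the highest counts, had a ratio of 0.961 with an interval of 0.905 to 1.02.

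The makeup of the tissue also differed between the libraries. The 8 cortex markers were all lower in replicate 2 (summed TPM 6346 and 5553) and so were the 8 chromaffin markers (1510 and 1259). All 7 liver markers, all 7 bone and cartilage markers (1.44 and 54.8 TPM) and the 6 skeletal muscle markers with enough counts (187 and 522 TPM for the list of 8) were higher in replicate 2. The 5 granulocyte markers with enough counts were higher too (27.6 and 85.2 TPM for the list of 6). Among the 6 brown fat genes 3 of the 5 with enough counts were lower. Endothelium markers were near even, at 249 and 244 TPM. The capsule and fibroblast markers summed to 797 and 1428 TPM, with 2 of the 10 lower in replicate 2. All 7 pericyte and smooth muscle markers were higher (94.6 and 165 TPM). The part of these shifts in the Hox ratios was not tested.

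Most Hox RNA was assigned to protein-coding transcripts. These held 93.4% and 93.3% of Hox TPM in the alignment-based transcript table and 88.2% and 88.7% in the table made directly from the reads, over 87 annotated transcripts. Of the 20 detected members, 15 have 2 or more transcripts, and a single one held at least 50% of the gene's TPM in 14 of them. Hoxb9-201 led its gene with 77.2% and Hoxb7-201 with 98.3%.

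**Figure D4:**
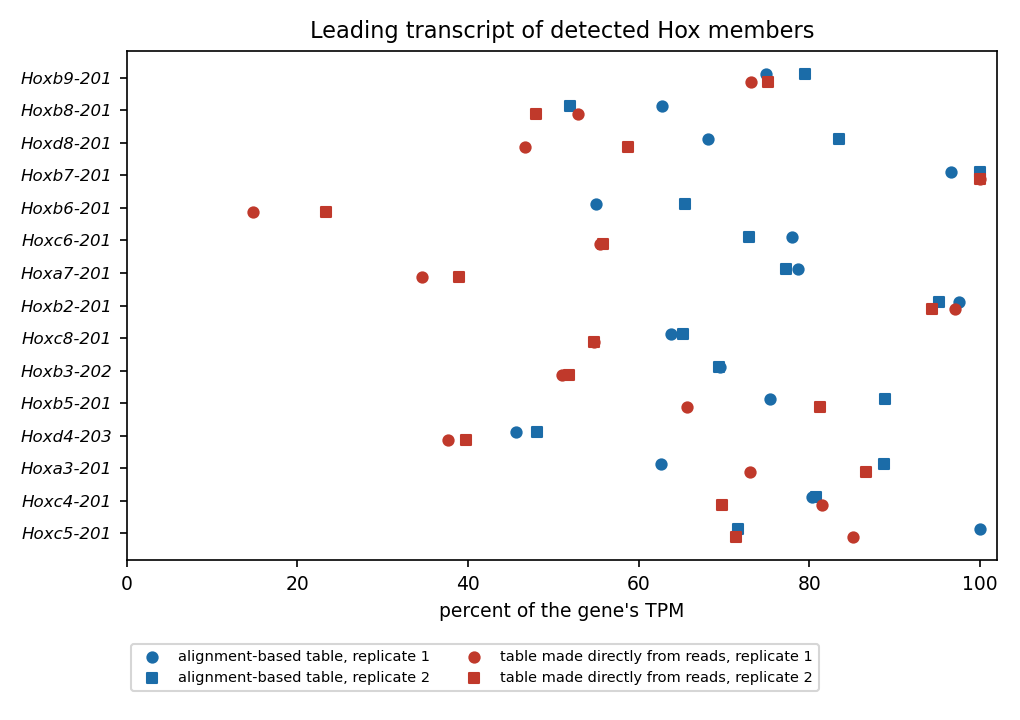
Share of each gene's TPM held by its leading transcript (leading in the alignment-based table) for the 15 detected members with 2 or more transcripts. Blue is the alignment-based table and red the table made directly from the reads, with circles for replicate 1 and squares for replicate 2. Hoxb6-201 and Hoxa7-201 show the widest gap between the tables.

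For 3 members the tables named different leading transcripts. Hoxa7-201 held 77.9% in the alignment-based table and 36.7% in the other, where Hoxa7-205, annotated as a target of nonsense-mediated decay, held 50.3%. Hoxb6-201 held 60.2% in one and 19.1% in the other, where Hoxb6-202 held 80.9%. Hoxd4 was divided in the first between Hoxd4-203, typed as a processed transcript and not as protein-coding, at 46.8% and the protein-coding Hoxd4-201 at 45.8%. In the second, Hoxd4-201 led with 61.3%. Retained introns were seen in both tables for Hoxc8, where Hoxc8-202 held 35.5% and 45.2%, and for Hoxb5, where Hoxb5-202 held 17.9% and 26.6%. The gene levels moved less than the isoforms: on the same total, all 20 detected members lay within 2-fold between the quantifications, with medians of -0.08 and -0.07 on the log2 scale.

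The clusters hold 46 other annotated genes between their outermost members, of which 16 are typed as miscellaneous RNA and 7 as microRNA. Of the 46, 6 reached 1 TPM in both libraries, beside 24.6% of all annotated genes of every type, and 27 had 0 counts in both, beside 49.9%. The short Gm27868 is among the 6 on only 1 and 2 counts. The strongest by counts was Gm53, a long noncoding RNA between Hoxb13 and Hoxb9 (chr11:96251105-96264868, plus strand), with 12.99 TPM on 649 counts in replicate 1 and 9.87 TPM on 463 counts in replicate 2. Its ratio was 0.714 with an interval of 0.632 to 0.806. Gm53 was named after its values were seen.

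Of the 16 matched noncoding RNAs on a list drawn from the clusters, 4 reached 1 TPM in both libraries, beside 24.6% of annotated genes. Hotairm1, in the Hoxa cluster, had 9.85 and 7.31 TPM on 80 and 66 counts, but 2.66 and 2.63 TPM in the table made directly from the reads. The latter are as deposited and were not set on the same total. Hoxd3os1 had 3.49 and 2.92 TPM, and Hoxb5os 3.52 and 2.11 TPM with a ratio of 0.610. Each lies antisense to members, and whether the counting used strand is not stated, so their reads and those of the members they overlap are uncertain. Hotair in Hoxc, Hottip in Hoxa and Haglr in Hoxd had 0 counts in both libraries.

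The clusters also carry microRNAs known to target Hox transcripts. Their hairpins had 0 counts, except Mir10a with 2 and 0, and the tables hold no entry for the mature forms. The mature sequences are from RefSeq (GRCm38.p6), with the seed, bases 2 to 8, in capitals. The families are shown because each shares a seed that can be searched for in the members.
mmu-miR-196a-5p (chr11:96265187-96265208, plus strand, also chr15:102973365-102973386, plus strand): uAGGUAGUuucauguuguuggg
mmu-miR-196b-5p (chr6:52230129-52230150, minus strand): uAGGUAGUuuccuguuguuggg
mmu-miR-10a-5p (chr11:96317186-96317208, plus strand): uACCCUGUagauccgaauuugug
mmu-miR-10b-5p (chr2:74726074-74726096, plus strand): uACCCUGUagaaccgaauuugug

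The complement of the miR-196 seed, ACUACCU, was searched on the transcript strand in the longest annotated 3′ UTR of each gene. It was present in 9 of 39 members (23.1%), against 6.81% of 21124 genes, or 0.337 matches per kb against 0.0475. Among them were Hoxa4, Hoxa5, Hoxa7, Hoxa9, Hoxb1, Hoxb6, Hoxb7 and Hoxc8. For Hoxa7 the longest UTR is that of Hoxa7-205, the transcript annotated as a target of nonsense-mediated decay. Several of the 13 matches in members lie in it, so the value per kb leans on that transcript. The complement of the miR-10 seed, ACAGGGU, was present in 4 of 39 members (10.3%), among them Hoxa3, Hoxb3 and Hoxd1, against 12.9% of genes. Of the 9 members with the miR-196 match, 6 were detected, beside 20 of all 39 members: Hoxa4, Hoxa5, Hoxa7, Hoxb6, Hoxb7 and Hoxc8. Hoxb9 had no such match. A link between matches and levels was not tested.

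Hoxb8 has no exact seed match, but its 3′ UTR holds a stretch that pairs with the whole of miR-196a, which is why it is shown with 2 seed sites. In the Hoxb8 site all 22 bases of the miRNA are opposed, 21 by ordinary pairs, given in capitals, and 1 by a G:U wobble, given in lower case. Only 1 other of 21026 UTRs, that of Rps6ka2, had all 22 bases opposed, with 12 ordinary pairs and 10 wobbles. In the other sites the capitals mark the seed match. A match describes the letters and does not show that the site is used.
Hoxb8-201 (bases 418 to 439 of the 3′ UTR): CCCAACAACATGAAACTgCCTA
Hoxb7-201 (seed match at base 168): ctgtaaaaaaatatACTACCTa
Hoxc8-201 (seed match at base 135): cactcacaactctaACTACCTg

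Hox proteins bind DNA with partners of the TALE class (homeodomain proteins with a 3-residue loop extension), the Pbx, Meis and Pknox families. Of these 9 genes 7 reached 1 TPM in both libraries, beside 56.7% of all protein-coding genes. Meis2 stood at 40.1 and 31.2 TPM with a ratio of 0.792, and Pbx3 at 22.6 and 18.7 TPM. Meis1 had 14.7 and 14.1 TPM, Pbx2 14.5 and 12.9, Pknox1 6.81 and 5.10 and Meis3 3.40 and 3.20. Pknox2 at 0.81 and 1.09 TPM passed in 1 library only, and Pbx4 had 0.64 and 0.57 TPM. Meis2 thus lay above every Hox member in both libraries.

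**Figure D5:**
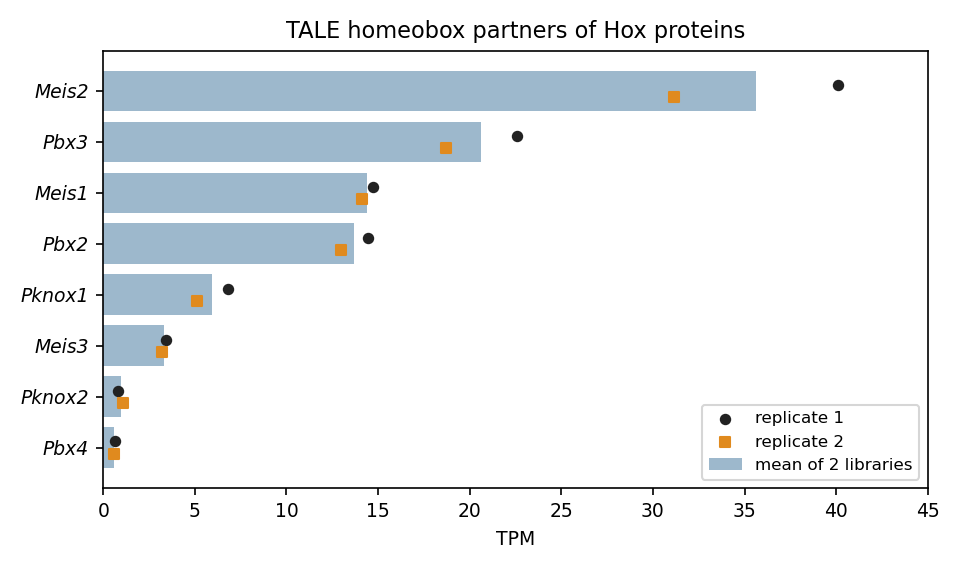
TPM of TALE partner genes, with bars for the mean of 2 libraries and points for each library. Of those drawn, Meis2 and Pbx3 have the longest bars, and both lie lower in replicate 2 than in replicate 1.

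Genes that set the Hox code in the embryo and genes that maintain it were also measured. Of 15 axial patterning genes 5 reached 1 TPM in both libraries, beside 56.7% of all protein-coding genes. They were led by Aldh1a2, the enzyme that makes retinoic acid, at 12.9 and 11.7 TPM. The retinoic acid receptors Rara and Rarg followed, at 9.20 and 8.71 TPM and at 7.30 and 7.55 TPM. Gdf11, a signal of the trunk-to-tail transition, lay just under the threshold at 0.94 and 0.98 TPM on 137 and 144 counts. Cdx1, Cdx2, Cdx4, Fgf8, Wnt3a and Msgn1 had 0 counts in both libraries. Cyp26b1, which breaks retinoic acid down, went from 417 to 203 counts, a ratio of 0.487 with an interval of 0.410 to 0.578.

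All 26 Polycomb genes, whose complexes keep Hox genes silent, reached 1 TPM in both libraries, beside 56.7% of all protein-coding genes. Among them Rbbp7 stood at 59.6 and Rbbp4 at 48.1 TPM (means, n = 2). All 12 Trithorax-related genes, which keep Hox genes active, reached 1 TPM too, led by Dpy30 at 29.0, Dot1l at 22.0 and Psip1 at 17.7 TPM. So did all 7 genes of the CTCF and cohesin list, which set boundaries within the clusters, led by Maz at 45.5, Rad21 at 32.7 and Stag2 at 27.8 TPM. None of the genes of these 3 lists was more than 1.5-fold apart between the libraries. Of protein-coding genes, 11.3% were that much higher and 1.48% that much lower in replicate 2.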

How the data were processed

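The authors, per the file headers and deposited notes, derived gene and transcript tables from alignments to the transcriptome (mm10, GENCODE M21), with expected counts that are not normalised and TPM over all entries. A second deposited transcript table, made directly from the reads, holds estimated counts and TPM. Column names are those of RSEM and kallisto. The tools themselves: not given in the sources used here. A directional library kit was used, per the labels' protocols.

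Levels are deposited TPM, as mean ± SD of 2 libraries. Nuclear protein-coding genes held 32.4% and 34.3% of TPM in the gene tables and 57.0% and 56.5% in the second table. Log2 shifts of members between the tables were therefore computed on that total. Single TPM values and the count of detected members from the second table are as deposited, on a scale that reads higher for these genes. Ratios used expected counts rounded to whole numbers and scaled by TMM (edgeR 4.0.16, R 4.3.3), with Clopper-Pearson 95% intervals (scipy 1.17.1), and were tested on simulated data. Reads carry no molecular identifiers, so intervals and floors of 3 counts cover counting error only. DESeq2 1.42.0 size factors were an alternative.

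Homeoboxes were found by translating GENCODE M21 coding sequences. The members and all lists were chosen with earlier results of these data known. Named were all members, all TALE partners, the 3 most abundant genes of each other list, and list genes past 1.5-fold with at least 100 mean counts; marker lists are given by sums, and Gdf11 and genes listed at 0 counts were named after their values were seen. Prac1 and Haglros were not matched. Reads were not assigned to alleles. Certain single genes and sequences that the rule takes are counted but not reported here.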

Additional observations from a re-analysis of the deposited data

How the results depend on the processing

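No paired analysis was possible because there is 1 group. The number of detected members stayed between 16 and 24 over the table made directly from the reads, thresholds of 0.5 and 2 TPM, TPM rescaled over nuclear protein-coding genes and each library alone. With the table made directly from the reads, the Hoxa, Hoxb and Hoxd shares were 18.9%, 54.0% and 11.8%, numbers 4 to 8 held 67.5% and numbers 11 to 13 0.107%, and Hoxb9 exceeded Hoxb8 by 0.72 on the log2 scale, in place of 0.90. With expected counts not divided by length, these cluster shares were 17.5%, 58.2% and 11.7%, numbers 4 to 8 held 61.2%, numbers 9 and 10 26.8% and numbers 11 to 13 0.0375%. The order of clusters and blocks by mean share was the same throughout. By counts, Hoxc and Hoxd had mean shares of 12.6% and 11.7%. In replicate 1 alone Hoxd lay ahead by counts, with 1170 against 1157 for Hoxc.

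Members more than 1.5-fold higher in replicate 2 numbered 0 with a minimum of 100 mean counts, 5 with no minimum, 0 at 2-fold and 0 with the table made directly from the reads. Those more than 1.5-fold lower numbered 1, 5, 0 and 1 under the same settings, and 4 at the smaller of the alternative fold thresholds. Scaling by DESeq2 size factors, library total or spike-ins changed neither count. Alternative scalings moved ratios by at most 0.078 on the log2 scale. The 2 libraries of 1 group give no test, and members under 20 counts have no ratio.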

Other observations

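The genes beside the clusters ranged widely in level. Of 9 matched flanking genes 6 reached 1 TPM in both libraries, beside 56.7% of all protein-coding genes. Mtx2, a mitochondrial import gene beside Hoxd, stood at 40.5 and 35.5 TPM, Calcoco1 beside Hoxc at 25.5 and 25.9 TPM and Skap2, an adaptor beside Hoxa, at 13.4 and 13.4 TPM. Evx1 and Evx2, the even-skipped homeobox genes beyond Hoxa13 and Hoxd13, had 0 counts in both libraries, as did Hoxa13 and Hoxd13 themselves. Among 10 other homeobox genes of the Antennapedia class, Meox2 and Meox1, which act in somites and their derivatives, were detected, at 5.04 and 4.51 TPM and at 3.73 and 3.37 TPM. The third by mean level, Gbx2, had 1 and 2 counts. Of the 10, 5 had 0 counts in both libraries, beside 49.9% of annotated genes of every type. The share among protein-coding genes alone was not computed.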
